A study of Mus musculus with 4 samples.

Results

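The S100 genes encode small calcium-binding proteins. The 10 members described here, S100a1, S100a4, S100a6, S100a8, S100a9, S100a10, S100a11, S100a13, S100a16 and S100b, were taken by their symbols from the 31053 genes counted in single cells of mouse aortic arches. They are 10 of the 17 S100 family genes counted. Each arch was taken with its branches and the tissue around the vessel, and live cells were sorted as DAPI-negative. Male mice were 3 months old at the start. They were bred from C57BL/6-Nfe2l2tm1.1Sred/SbisJ mice, which carry floxed alleles of Nfe2l2, the gene of the transcription factor Nrf2, and from the Cre line B6;129-Tg(Cdh5-cre)1Spe/J. The library Lox_CTR came from normocholesterolemic Nrf2 flox/flox mice and KO_CTR from normocholesterolemic mice labelled Nrf2Cdh5tKO, each a pool of 4 mice on a standard diet. Lox_HFD (Nrf2 flox/flox) and KO_HFD (labelled Nrf2Cdh5tKO) were each a pool of 3 atherosclerotic mice that had a high-fat diet for 21 weeks. In Nrf2Cdh5tKO mice a Cre driven by the promoter of Cdh5, an endothelial junction gene, removes exon 5 of Nfe2l2. Cdh5-cre is also active in precursors of blood cells, so endothelial cells and leukocytes can both be hit. Each condition is 1 library, so that conditions have no replicates. In what follows, 4 values in a row are in the order Lox_CTR, KO_CTR, Lox_HFD and KO_HFD.

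S100 proteins carry a pair of EF-hand loops, and most work as dimers that expose a binding surface when calcium is bound. S100a8 and S100a9 form calprotectin, the most abundant cytosolic protein of neutrophils, which is released as a danger signal and binds Toll-like receptor 4. S100a10 is bound to annexin A2 at the plasma membrane, where the pair is known to hold plasminogen and its activator. S100a4 binds nonmuscle myosin and is widely used as a mark of fibroblasts, although leukocytes are known to express it too. S100a6 and S100a11 bind annexins, S100a1 is a regulator of calcium cycling in heart muscle, S100a13 is needed for the release of FGF1 by a route without a signal peptide, S100a16 is a widely expressed member, and S100b is best known from glia and fat cells.

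The libraries held between 12276546 and 98754487 unique molecular identifiers (UMIs, each a captured mRNA molecule). Of 15599 barcodes, 14148 were kept, each with 200 to 6000 detected genes and no more than 15% of its UMIs from mitochondria, and median UMIs per kept cell lay between 9200.5 and 14152.5. Cells were given a type from fixed lists of marker genes. This gave 7960 fibroblasts, 2305 smooth muscle cells, 1330 macrophages, 826 T cells, 203 B cells, 166 endothelial cells, 124 neutrophils, 95 classical and 56 nonclassical monocytes, 39 type 1 and 66 type 2 dendritic cells and smaller groups. No type was given to 862 cells, which had too few markers or too small a lead over the next type. Endothelial cells had Cdh5 at 1007 UMIs per 1000000 against 1.34 in all other cells, and macrophages had C1qa at 5244 against 55.9. In neutrophils Retnlg was at 18607 against 11.2, but Ly6g was detected in only 28.2% of them, and among the 6 markers of classical monocytes Vcan, at 190 against 194, did not set them apart. Nfe2l2 was higher, not lower, in endothelial cells under the Nrf2Cdh5tKO labels (187, 374, 170 and 345 UMIs per 1000000), so these libraries are called by their labels. The counts are per gene and not per exon, so the excision of exon 5 could not be read from them. Between 2 and 10 barcodes were shared by each pair of libraries, and the counts of members called or past 2-fold given below were the same without them.

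Of the members, 9 lie on chromosome 3 and S100b lies on chromosome 10 (GENCODE M21, build GRCm38). Of those on chromosome 3, 7 lie within 184.7 kb (90511034 to 90695721), from S100a1 to S100a9, and S100a11 (93520488 to 93526287) and S100a10 (93555080 to 93564643) lie 28792 bases apart further along. S100a1 (reverse strand, 90511034 to 90514392) and S100a13 (forward strand, 90514435 to 90524581) start head to head with 42 bases between them. S100a4 (90603771 to 90606045) and S100a6 (90612882 to 90624181) are neighbours on the forward strand. S100a8 (forward strand, 90668978 to 90670035) and S100a9 (reverse strand, 90692632 to 90695721) face each other with 22596 bases between. The neighbours are shown here because their levels, given below, are alike for S100a8 and S100a9 and unlike for S100a4 and S100a6. The lines give the 80 bases before and the first 20 bases from the RefSeq start (GRCm38.p6). They run 5′ to 3′ on the gene's own strand, with capitals for the letters TATAAA. For S100a8 the RefSeq start lies downstream of the GENCODE start given above, so that its line falls within the GENCODE gene.
S100a4, chr3:90603690-90603789, forward strand: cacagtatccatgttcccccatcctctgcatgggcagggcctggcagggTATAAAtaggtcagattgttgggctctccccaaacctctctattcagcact
S100a6, chr3:90612814-90612913, forward strand: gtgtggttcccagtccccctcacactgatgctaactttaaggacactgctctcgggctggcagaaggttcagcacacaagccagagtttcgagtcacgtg
S100a8, chr3:90668991-90669090, forward strand: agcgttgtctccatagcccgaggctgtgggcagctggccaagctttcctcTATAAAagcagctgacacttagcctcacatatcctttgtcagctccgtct
S100a9, chr3:90695702-90695801, reverse strand: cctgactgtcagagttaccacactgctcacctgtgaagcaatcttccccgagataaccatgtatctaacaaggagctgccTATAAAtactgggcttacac
TATAAA was searched on both strands from 250 bases before to 50 bases after the start, in the 9 members that matched a RefSeq promoter. It was found 31 bases before the start of S100a4, 30 bases before that of S100a8 and at the annotated start of S100a9, and 13.6% of all 32851 promoters hold it. GAGGAA, the core of many sites of ETS family factors, was found in S100a4, S100a8, S100a11 and S100a16 and in 28.3% of all promoters. TTGCNNAA, the site of C/EBP factors, was found 236 bases before the start of S100a9 (10.8% of all promoters). TGANTCA, a pattern wider than the AP-1 site, was found in S100a11 as TGAGTCA and in a second promoter of S100a16 as TGAATCA (7.81%). These are matches of letters only.

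The family as a whole was by far most abundant in neutrophils, where the 10 members made up 21.6% of all UMIs over the 4 libraries. The share was 5.59% in classical monocytes and 2.52% in nonclassical monocytes. In nonclassical monocytes 1 cell of Lox_CTR held 90.2% of the S100a8 UMIs and 83.9% of the S100a9 UMIs, and the share in KO_HFD alone was 0.345%. Over the 4 libraries the share was 0.673% in fibroblasts, 0.519% in smooth muscle cells, 0.292% in macrophages, 0.285% in endothelial cells and 0.264% in T cells. The leading member differed between types. S100a6 held 52.4% of the family's UMIs in fibroblasts and 49.2% in smooth muscle cells, S100a11 held 50.9% in type 1 dendritic cells and S100a10 held 38.8% in NK cells. Levels below are UMIs of a gene per 1000000 UMIs of the same cells (CPM). Each transcript gives a 3′ tag whatever its length, so CPM were not divided by length. Of the 7 other S100 genes, none was abundant enough to be tested. The highest was S100a7a at 2.74 CPM in fibroblasts.

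**Figure D1:**
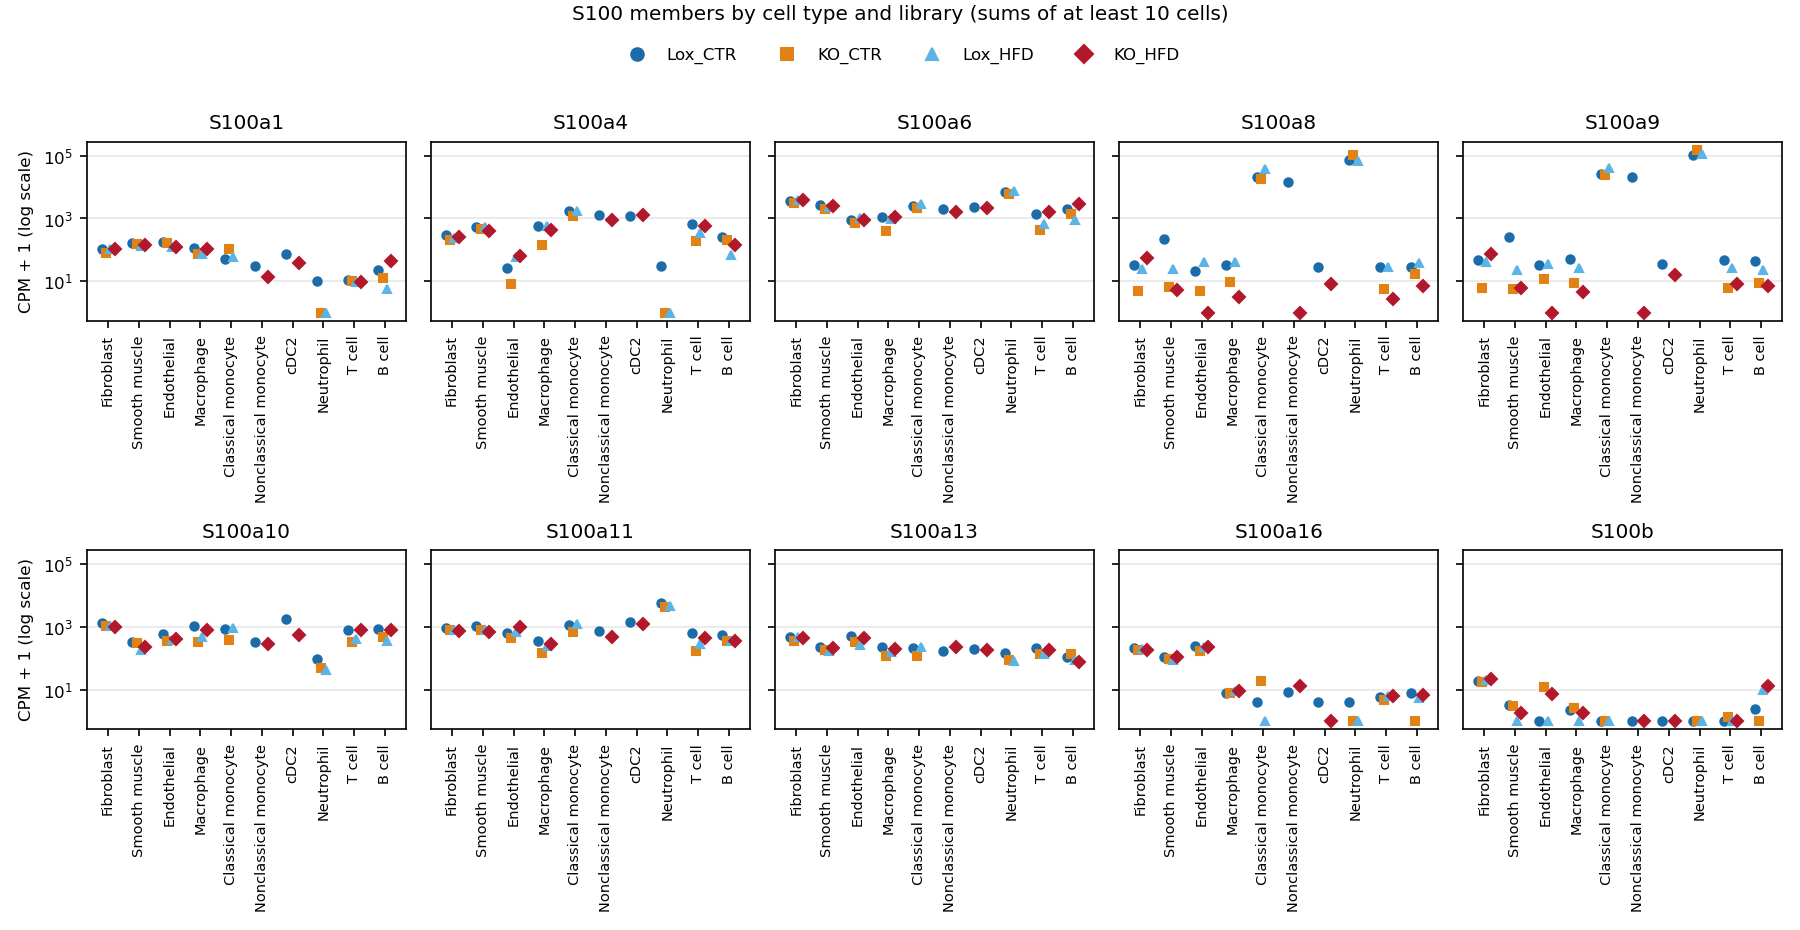
CPM of each member (log axis, 1 added) by cell type, 1 panel per gene, with 1 symbol for each library and only sums over at least 10 cells. S100a8 and S100a9 stand high in neutrophils and classical monocytes, S100a16 is low in every type of leukocyte, and S100b stays below 30 CPM throughout.

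S100a8 and S100a9 were highest in neutrophils. In the 90, 14, 12 and 8 neutrophils, S100a8 was at 74434, 106532, 69515 and 128859 CPM. S100a9 was at 103301, 152711, 110631 and 164588 CPM there. Both were therefore among the few transcripts that take several percent of a cell's UMIs, and the lowest neutrophil library lay above every other type. In classical monocytes S100a8 was at 20586, 18323, 37572 and 412 CPM in 51, 15, 21 and 8 cells, with the last far below the others.

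The calprotectin UMIs of the monocyte gate came from few cells. Of its 95 cells, 10 gave over 1% of their UMIs to S100a8 and S100a9, and 9 of these 10 also gave at least 1% of their UMIs to Camp, Ngp and Ltf, genes of the secondary granules made by neutrophil precursors. Such granule-gene cells, a group chosen after the values were seen, numbered 35 over all gates, of which 13 were gated as neutrophils and 11 were given no type. In them S100a8 and S100a9 took a median of 33.2% of UMIs, against 11.9% in the other 111 neutrophils. Their depth was also unlike, with a median of 14965 UMIs against 3084. S100a6 was at 6840 CPM in the other neutrophils, at 6271 in the 13 granule-gene cells of the neutrophil gate and at 1825 in all 35. The gate did not divide these cells cleanly. Granule-gene cells of the neutrophil gate included 1 with 1 S100a6 UMI of 12348 and 1 with 6 of 21952, while 1 cell given no type had 76 of 12935. In Lox_HFD S100a6 was higher in granule-gene cells of the neutrophil gate than in the other neutrophils (10384 against 4754). S100a11 was at 5779, 4078 and 2078 CPM in the same 3 groups, and in KO_HFD it was slightly higher in the granule-gene cells (3579 against 3102). S100a8 made up 45.1% of the pair's UMIs in granule-gene cells and 40.0% in the other neutrophils.

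Without granule-gene cells, S100a8 in classical monocytes was at 98.9, 0 (exact 95% Poisson limit 22.2), 1451 and 412 CPM, and the 1451 rests on 1 cell of Lox_HFD that gave 5.61% of its UMIs to the pair. In KO_HFD, 1 cell held all S100a8 UMIs. In monocytes under 1%, S100a8 exceeded S100a9 in Lox_CTR, where it made up 69.6% (58.2 to 79.5, exact 95% binomial interval) of the pair. In Lox_HFD it made up 90.7% (77.9 to 97.4), with 39 UMIs against 4. That order is the reverse of the one in neutrophils, but KO_CTR had 0 UMIs of S100a8 and 2 of S100a9. Macrophages and smooth muscle, endothelial, T and B cells of Lox_HFD, given below, also had more S100a8 than S100a9.

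All 4 libraries had a low level of S100a8 and S100a9 in cells that should lack them. Fibroblasts, smooth muscle cells, endothelial cells, T cells and B cells were pooled for this, leaving out cells above 1%. There S100a8 was at 26.2, 4.46, 24.9 and 2.87 CPM, and S100a9 at 39.1, 5.07, 35.7 and 3.42. The level was thus several times higher in both Nrf2 flox/flox libraries than in both libraries labelled Nrf2Cdh5tKO. Cells above 1% were 1.33%, 0.606%, 1.86% and 0.441% of the kept cells in the same order, and held 95.2% to 99.0% of the pair's UMIs.

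Macrophages had S100a8 at 32.5, 8.55, 40.9 and 2.22 CPM and S100a9 at 51.2, 7.78, 26.1 and 3.55. The exact 95% Poisson interval of S100a8 lay above the pooled background in 3 libraries, at 28.5 to 37.0 in Lox_CTR, 5.36 to 12.95 in KO_CTR and 28.7 to 56.6 in Lox_HFD, and held it in KO_HFD (0.721 to 5.18). That of S100a9 lay above it in Lox_CTR (46.1 to 56.7) and held it in the others. The highest S100a8 level of a single background type under 1% was 32.4 (smooth muscle cells), 15.6 (B cells, 4 UMIs), 40.9 (endothelial cells, 7 UMIs) and 6.004 CPM (B cells, 1 UMI), so that the macrophage values of S100a8 were not set apart from these types. For S100a9 in Lox_CTR the highest such level was 45.6 CPM (T cells, 38.9 to 53.1), just under the macrophage interval, which the T cell interval overlaps.

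The share of macrophages with an S100a8 UMI was 29.8%, 6.96%, 27.2% and 1.90%, and in fibroblasts of the same libraries it was 21.6%, 6.05%, 21.03% and 2.95%. Median depth was 10081, 7306, 6957 and 7566 UMIs in macrophages and 12108, 16596.5, 14089 and 10650 in fibroblasts. After thinning each cell to 1000 UMIs the shares were 2.80%, 0.984%, 6.19% and 0% in macrophages, of which 5, 11, 6 and 9 shallower cells were left out, and 2.35%, 0.741%, 1.89% and 0.827% in fibroblasts, of which 49, 33, 10 and 47 were. Macrophages of Lox_HFD were thus above fibroblasts at equal depth, while smooth muscle cells (5.56%), endothelial cells (10.7%) and B cells (6.45%) of that library were too. S100a8 made up 37.5% to 47.9% of the pair in fibroblasts and 61.0% (47.4 to 73.5, exact 95% binomial interval) in macrophages of Lox_HFD, an interval that holds neither the 40.0% of neutrophils nor the 45.1% of granule-gene cells. Fibroblasts of Lox_HFD had the 37.5% (32.9 to 42.2), an interval that holds the 40.0% but not the 45.1%. Other types of Lox_HFD had 61.5% (B cells), 53.8% (endothelial cells), 52.6% (smooth muscle cells) and 52.5% (T cells). The intervals of these types hold both the 40.0% and the 45.1%. Where these cells got the transcripts was not tested.

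Some stromal values came from a few cells instead. S100a8 in fibroblasts was at 31.7, 4.01, 23.7 and 54.5 CPM, but 3 cells of KO_HFD over 1% held most of the last, which was 2.57 without them. In smooth muscle cells of Lox_CTR, S100a8 went from 221 to 32.4 CPM when 2 cells were left out. Of the 7 fibroblasts over 1%, 4 were called doublets by Scrublet, and of the 2 smooth muscle cells 1 was.

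**Figure D2:**
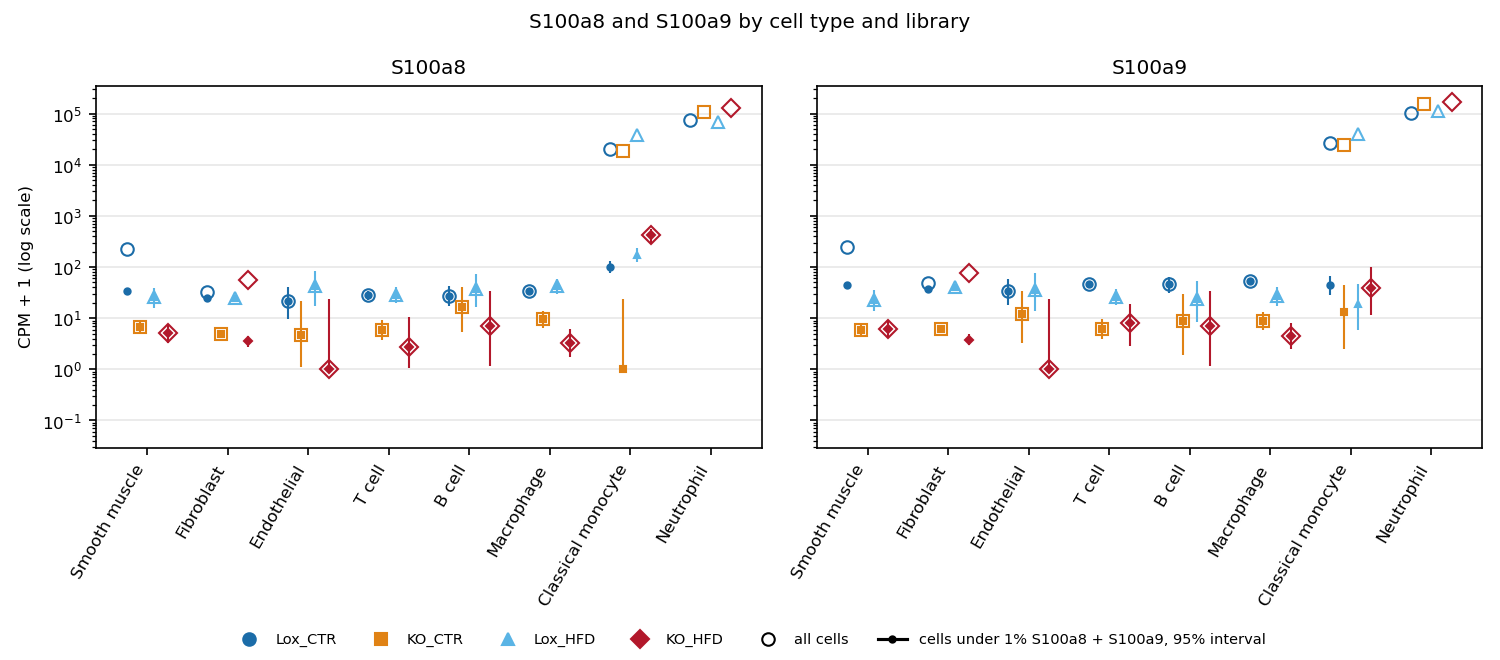
CPM of S100a8 and of S100a9 (log axis, 1 added) by cell type and library. Open symbols take all cells of a type, filled symbols only cells under 1% of UMIs from the pair, with exact 95% Poisson intervals. Outside neutrophils and monocytes the filled symbols lie far below those of neutrophils, with Lox_CTR and Lox_HFD above KO_CTR and KO_HFD. The KO_HFD neutrophils are 8 cells.

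Cell types were compared with the library as a block, since all libraries hold several types. UMIs were summed per type and library, and a gene was called at an adjusted p under 0.05 in edgeR's quasi-likelihood test over all genes. These libraries differ in genotype label and diet, and no other replicates exist. The error, taken over all types of a fit, is what differs between pools beyond the shifts shared by all types. In neutrophils against macrophages 7 of 10 members were called, where 40.5% of all 10788 genes tested were. S100a8 rose by 12.43 ± 0.995 (log2, SE, 3 against 4 sums, edgeR adjusted p = 7.37e-12), S100a9 by 12.97 ± 0.98 (edgeR adjusted p = 2.07e-12), S100a11 by 4.27 ± 0.27 (edgeR adjusted p = 3.96e-14) and S100a6 by 2.98 ± 0.28 (edgeR adjusted p = 2.2e-10). S100a8 and S100a9 served to read these cells here, but were not among their gate's markers.

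S100a4, S100a10 and S100a1 went the other way in neutrophils. S100a4 fell by 4.42 ± 0.64 (edgeR adjusted p = 1.19e-06), S100a1 by 3.72 ± 0.60 (7.32e-06 in the same test) and S100a10 by 3.15 ± 0.41 (1.81e-07). Over all 4 libraries only 12 UMIs of S100a4 were counted in 124 neutrophils, 9 of them in Lox_CTR and 3 in KO_HFD. The median over the members was -1.08, beside -1.07 over all genes. S100a13 (-0.55 ± 0.30) and S100a16 (-1.60 ± 1.11) did not pass.

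In classical monocytes against macrophages 5 of 10 members were called, all of them higher, where 27.0% of all genes were called in either direction. S100a4 rose by 1.95 ± 0.33, S100a6 by 1.64 ± 0.27 and S100a11 by 2.01 ± 0.26 (edgeR adjusted p = 2.83e-05, 1.88e-05 and 2.83e-07). The monocyte levels of S100a4 were 1730, 1222, 1731 and 1542 CPM, above its macrophage level in every library. S100a8 and S100a9 were higher by 10.52 ± 0.93 and 10.84 ± 0.92, and by 3.91 ± 0.70 and 4.21 ± 0.81 with granule-gene cells left out (3 against 4 sums). Most of the Lox_HFD UMIs behind both of the smaller values came from 1 cell. Without granule-gene cells, monocyte S100a9 was at 43.2 CPM in Lox_CTR, below the 51.2 of macrophages, at 12.1 in KO_CTR and at 2014 in Lox_HFD, where it was 17.6 without the cell over 1%, against 26.1 in macrophages. S100a8 without that cell was at 171 CPM in Lox_HFD, and it had no UMI in KO_CTR. S100a1 was then called too, at -0.86 ± 0.26. The median over members was 0.93, beside -0.28 over all genes.

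In T cells against macrophages 3 of 10 members were called, all lower, where 67.0% of all genes were called. S100a1 fell by 3.51 ± 0.23 (edgeR adjusted p = 8.96e-15), from 118, 70.4, 73.9 and 104 CPM in macrophages to 10.1, 9.42, 8.69 and 8.75 in T cells, with no overlap. S100a16 fell by 0.86 ± 0.29 (edgeR adjusted p = 0.00955), between 2 levels under 10 CPM, and S100b by 3.23 ± 1.19 (edgeR adjusted p = 0.0186), on 15 UMIs in macrophages and 1 in T cells. The calls of S100a16 and S100b were lost without Lox_CTR, and that of S100b also with a stricter gate. With clusters in place of gates S100b was at -0.09 and not called, and S100a16 reversed to 0.67. The medians were -0.35 over members and -0.14 over all genes.

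S100a6, the leading stromal member, was at 3605, 3056, 3991 and 3910 CPM in fibroblasts. Smooth muscle cells had 2696, 2044, 2344 and 2539 CPM and endothelial cells 872, 721, 1047 and 885. Each fibroblast library lay above its smooth muscle level, and the ranges over libraries did not overlap. In the order of median levels neutrophils came before fibroblasts, then mesothelial cells (2 libraries), classical monocytes and smooth muscle cells. After neutrophils, each of these types overlapped in range with its neighbour in that order. S100a11, which binds annexin A1, was at 946, 825, 814 and 742 CPM in fibroblasts and at 1101, 781, 789 and 696 in smooth muscle cells, which overlap. In neutrophils it was at 5973, 4489, 4548 and 3407. Type 1 dendritic cells of Lox_CTR and KO_CTR had it at 1850 and 1256.

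S100a4 was not highest in fibroblasts. Its fibroblast level was 293, 210, 245 and 262 CPM, below that of smooth muscle cells (545, 460, 517 and 388) in each library. Classical monocytes stood highest, next to type 2 dendritic cells at 1241 in Lox_CTR and 1310 in KO_HFD. The type 1 dendritic cells had 41.5 in Lox_CTR and 4.06 in KO_CTR. Endothelial cells were low, at 25.3, 7.47, 58.5 and 62.8 CPM. In every library the classical monocytes were thus above each stromal type for S100a4.

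S100a10, the partner of annexin A2, was at 1378, 1088, 1053 and 1034 CPM in fibroblasts and at 344, 316, 185 and 231 in smooth muscle cells, a gap of several times in each library. Endothelial cells had 581, 370, 374 and 421. Mesothelial cells had the highest levels, 2148 in Lox_CTR and 1631 in KO_CTR in the sums of at least 10 cells, and neutrophils the lowest among abundant types, at 95.5, 48.8, 41.2 and 74.5.

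Among the less abundant members, S100a16 and S100b were low in leukocytes, while S100a1 and S100a13 were spread more widely. S100a1 was high in mesothelial cells (320 CPM in Lox_CTR and 387 in KO_CTR), ahead of smooth muscle cells (166, 149, 130 and 147) and endothelial cells (182, 161, 123 and 126), whose ranges overlap. Its 392 CPM in the 12 cardiomyocytes, all of KO_CTR, rest on 1 cell with 61.9% of the UMIs, and the median of these cells was 83.3. S100a13 was at 476, 366, 476 and 451 CPM in fibroblasts and 520, 329, 263 and 452 in endothelial cells, again with overlap. Over all libraries it was also at 204 CPM in classical monocytes, 201 in macrophages, 178 in T cells and 130 in neutrophils. S100a16 was at 215, 184, 204 and 188 CPM in fibroblasts, 250, 172, 239.8 and 226 in endothelial cells and 108, 94.7, 91.7 and 107 in smooth muscle cells. It was at or below 8.44 CPM in all macrophage libraries. S100b was the rarest, at 18.5, 16.3, 20.1 and 21.3 CPM in fibroblasts, and had no UMI in any monocyte, neutrophil or dendritic cell.

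Macrophages differed from fibroblasts in 7 of 10 members, while 66.4% of all genes were called. S100a16 fell by 4.67 ± 0.19 (edgeR adjusted p = 9.21e-21), S100b by 3.89 ± 0.41, S100a6 by 2.02 ± 0.26, S100a11 by 1.69 ± 0.24, S100a13 by 1.25 ± 0.19 and S100a10 by 0.78 ± 0.25. S100b had 15 UMIs in macrophages, beside 1866 in fibroblasts. The S100a10 call was lost without KO_CTR and with clusters in place of gates. S100a4 rose by 0.74 ± 0.30 (edgeR adjusted p = 0.0300), a call that was lost without Lox_CTR, Lox_HFD or KO_HFD, with a stricter gate, without the limits on cells, in DESeq2 and with DESeq2's scaling. That scaling moved the median of all genes from -0.03 to -0.26, and members had a median of -1.22. S100a1 was alike, at -0.01 ± 0.16.

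Smooth muscle cells differed from fibroblasts in 6 of 10 members, where 45.8% of all genes were called. S100a1 rose by 0.64 ± 0.16 and S100a4 by 0.99 ± 0.30 (edgeR adjusted p = 0.00134 and 0.00655). The call of S100a4 was lost without Lox_CTR and without the limits on cells. S100b fell by 3.31 ± 0.33, on 66 UMIs in smooth muscle cells, S100a10 by 2.03 ± 0.26, S100a13 by 1.10 ± 0.19 and S100a16 by 0.92 ± 0.14. S100a6, at -0.56 ± 0.25, missed the threshold (edgeR adjusted p = 0.0604), and S100a11 was at 0.04 ± 0.23. The medians were -0.31 over members and 0.00 over all genes.

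Endothelial cells differed from fibroblasts in 4 of 10 members, all lower, where 32.5% of all genes were called. S100a4 fell by 3.18 ± 0.45, S100b by 2.40 ± 0.68, S100a6 by 2.24 ± 0.26 and S100a10 by 1.61 ± 0.27 (edgeR adjusted p = 6.65e-07, 0.00683, 1.61e-08 and 1.02e-05). S100b had 4 UMIs in the 166 endothelial cells, beside 1866 in fibroblasts. Its call was lost without Lox_CTR and with clusters in place of gates. S100a4 was at -0.53 and not called when the limits on genes and mitochondrial share were lifted. S100a16 (-0.03 ± 0.16), S100a13 (-0.39 ± 0.20) and S100a11 (-0.50 ± 0.24) did not pass. The medians were -1.43 over members and -0.09 over all genes.

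**Figure D3:**
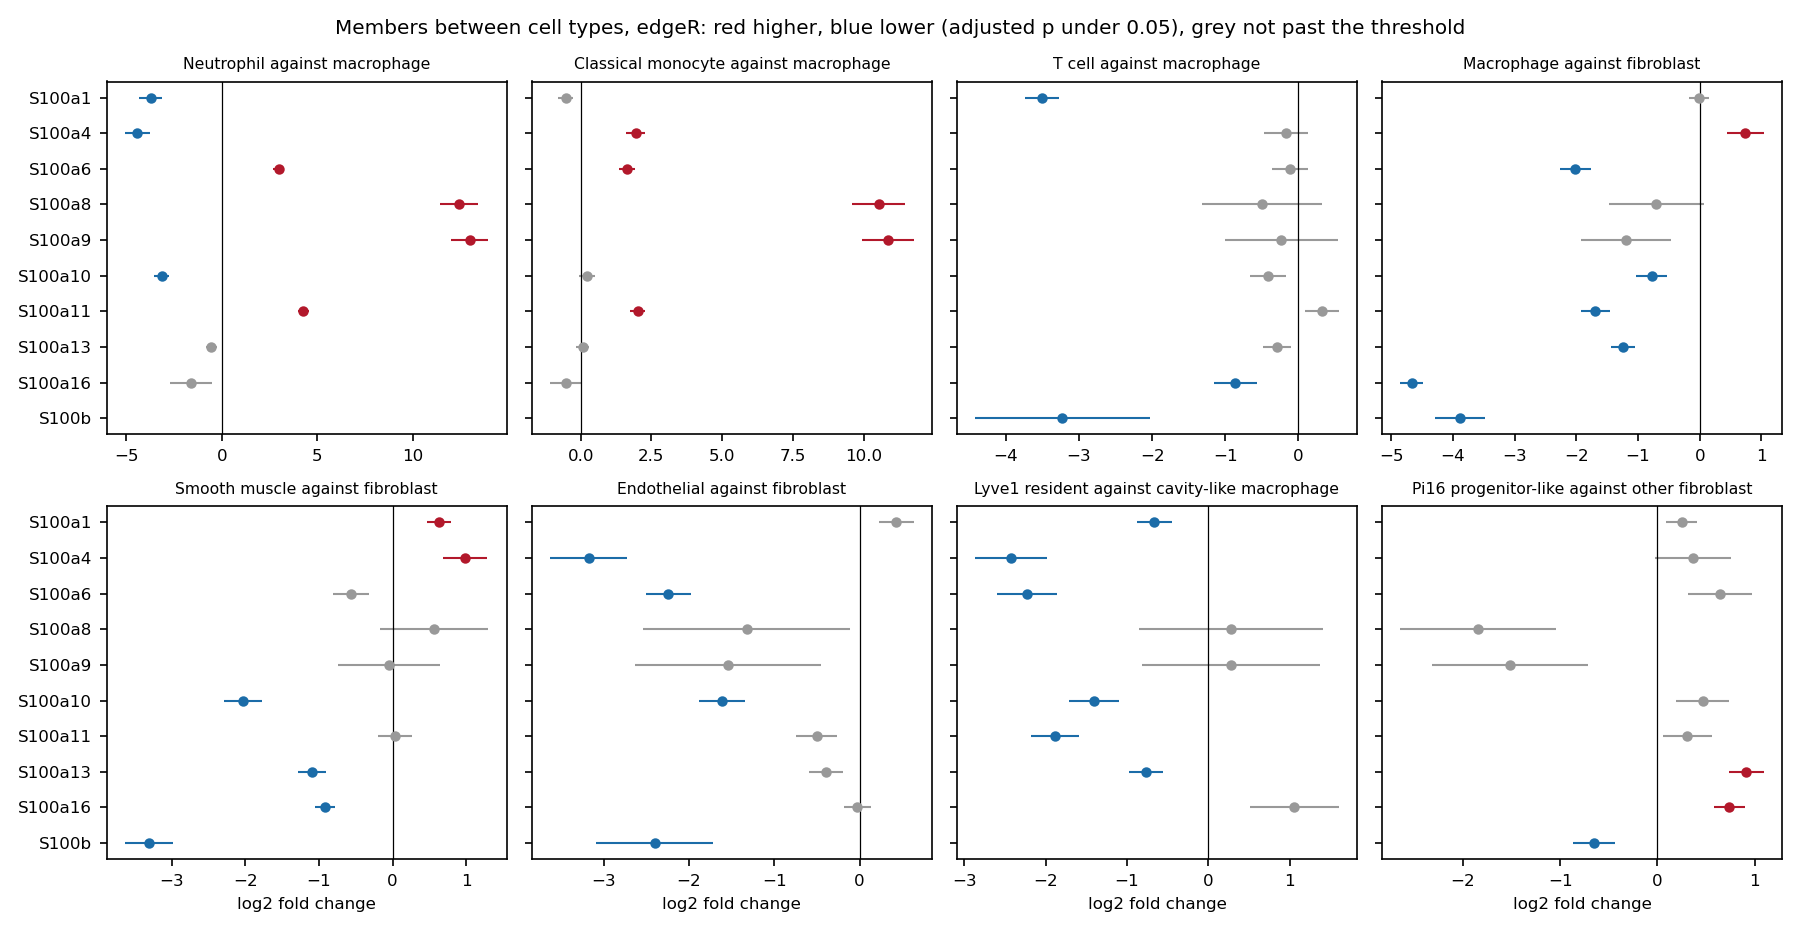
log2 fold change of each member (point, with its SE as a bar) in 8 comparisons of cell types, from edgeR. Red (higher) and blue (lower) points passed an adjusted p of 0.05, grey points did not, and each panel has its own axis range. S100b is left out of 3 panels where its SE exceeded 2.5. S100a6 and S100a11 are right of 0 in neutrophils and classical monocytes and left of 0 in Lyve1 resident against cavity-like macrophages.

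Free RNA of fibroblasts can be counted in other cells. Col1a2, Col3a1, Bgn and Serping1, fibroblast genes outside the gate, were counted in macrophages at 1.01% to 5.23% of their fibroblast level of the same library. S100a16 was there at 3.11% to 4.49% of its fibroblast level, inside that band, and in T cells at 2.09% to 2.79%. The level of S100a16 in macrophages could not be told apart from those of the 4 genes. All 4 were called lower in T cells than in macrophages, with a median of -1.03 beside -0.14 over all genes. S100a16 was lower there too, by the 0.86 given above. Whether macrophages make part of these transcripts was not tested. S100a6 was at 13.2% to 30.0% of its fibroblast level in macrophages, S100a10 at 31.3% to 80.7% and S100a4 at 66.1% to 233%, all above the band.

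**Figure D4:**
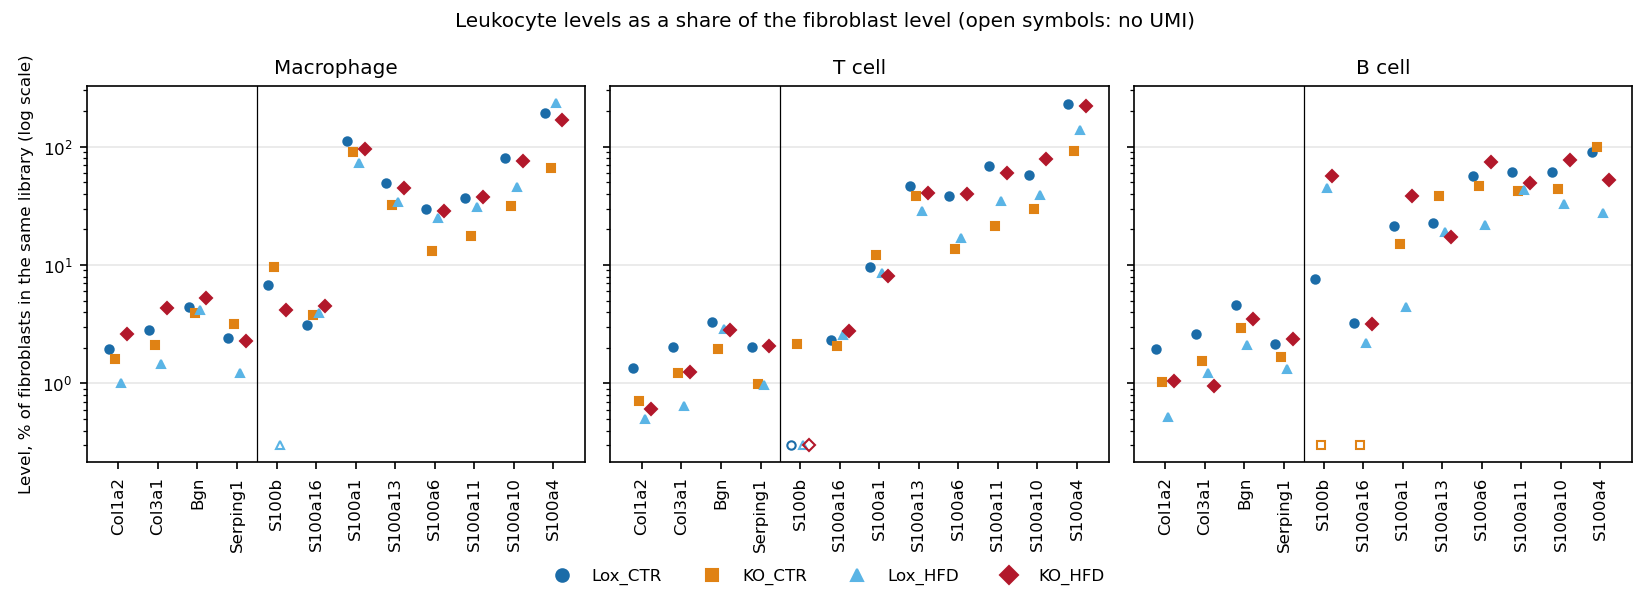
Level in macrophages, T cells and B cells as a percent of the fibroblast level of the same library (log axis), for Col1a2, Col3a1, Bgn and Serping1 and for the members. Open symbols mark sums without a UMI. S100a16 lies among the 4 fibroblast genes, and S100a4, S100a6, S100a10 and S100a11 lie above them.

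Within the fibroblasts, the Pi16 progenitor-like cells (2973 of 7960, with at least 4 of Pi16, Dact2, Dpp4, Sema3c, Cd55 and Anxa3) had more S100a13 and S100a16. This gate counts detected markers without regard to depth, and its cells had more UMIs per cell than other fibroblasts in each library. The part of depth in the values below was not tested. S100a13 was at 616, 445, 654 and 606 CPM in them and at 354, 254, 274 and 327 in other fibroblasts, without overlap, and rose by 0.91 ± 0.18 (edgeR adjusted p = 0.00015). S100a16 was at 269.6, 209.9, 269.8 and 251 against 168, 147, 129 and 137, and rose by 0.74 ± 0.16 (edgeR adjusted p = 0.000512). S100b went the other way, by -0.65 ± 0.21 (edgeR adjusted p = 0.0301), a call lost without Lox_CTR, Lox_HFD or KO_HFD, without the limits on cells and in DESeq2. S100a13, S100a16 and S100b were the 3 of 10 members called, where 15.7% of all 10835 genes were. The medians were 0.34 over members and -0.00 over all genes.

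The other split inside a type that was fitted, between macrophage sub-types, had more members called than that of fibroblasts. Cavity-like macrophages (Lyz1, Retnla, Ear2, Fn1, Lpl) numbered 97, 9, 10 and 21 (the 9 were too few for a sum), and Lyve1 resident macrophages (Lyve1, Folr2, Cd163, F13a1, Cd209f, Cbr2) 459, 254, 64 and 183. In Lyve1 resident against cavity-like macrophages 6 of 10 members were called, all lower, where 22.9% of all genes were called. S100a4 fell by 2.43 ± 0.44 (log2, SE, 4 against 3 sums, edgeR adjusted p = 4.5e-05), S100a6 by 2.23 ± 0.37 (1.21e-05), S100a11 by 1.88 ± 0.29 (4.06e-06) and S100a10 by 1.41 ± 0.30 (0.000533). S100a13 and S100a1 fell by 0.77 ± 0.21 and 0.66 ± 0.21, calls that were lost without KO_HFD and without Lox_HFD, in that order. The S100a1 call was also lost with clusters in place of gates. Col1a2, Col3a1, Bgn and Serping1 were higher in Lyve1 resident cells by 0.93 to 1.31, and their part in the result was not tested. Median depth was 9803, 7205, 5903.5 and 7223 UMIs in Lyve1 resident cells and 17827, 21856, 19537 and 15977 in cavity-like cells. The part of depth was not tested either. The medians were -0.71 over members and 0.19 over all genes.

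Cavity-like macrophages had S100a4 at 1158, 1139, 992 and 1176 CPM, nearly level between libraries. Lyve1 resident macrophages had 387, 73.8, 94.5 and 244, so that the libraries differed there by several times. S100a6 was at 2309, 2907, 1678 and 3022 in the cavity-like cells and at 717, 241, 255 and 715 in the Lyve1 resident ones, without overlap. Lox_CTR and KO_HFD were the higher libraries among Lyve1 resident cells for both genes.

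S100a4, S100a6, S100a10 and S100a11 also differed between libraries in whole macrophages, as did S100a8 and S100a9. Here no test can be made, and a ratio is named when it passed 2-fold with at least 30 UMIs in the pair, with an exact 95% binomial interval that covers counting error only. For KO_CTR over Lox_CTR 6 of the 9 members with enough UMIs passed, where 9.97% of all genes did. S100a4 was lower, with a log2 ratio of -2.01 (-2.17 to -1.86), S100a10 with -1.71 (-1.81 to -1.61), S100a6 with -1.43 (-1.52 to -1.33) and S100a11 with -1.28 (-1.44 to -1.12). The median over all genes was 0.23 in this pair. S100a8 (-1.93) and S100a9 (-2.72) also passed, next to the drop of their background given above.

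For KO_HFD over KO_CTR 3 of 7 passed, where 4.74% of all genes did. S100a4 was higher by 1.65 (1.48 to 1.83), S100a6 by 1.48 (1.38 to 1.59) and S100a10 by 1.19 (1.08 to 1.31). S100a11, at 0.94 (0.75 to 1.13), stayed under the limit. The S100a10 ratio was 0.78 as a mean over cells and 0.90 with a stricter gate, both under 2-fold.

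For Lox_HFD over Lox_CTR 1 of 9 passed, where 13.1% of all genes did. This was S100a10 with -1.21 (-1.36 to -1.07), which was -0.69 with clusters in place of gates. S100a4, at 0.03 (-0.11 to 0.16), and S100a6, at -0.13 (-0.23 to -0.03), were near 0 there. For KO_HFD over Lox_HFD 2 of 8 passed, where 6.74% of all genes did, and these were S100a8 (-4.20) and S100a9 (-2.88). KO_HFD and Lox_HFD had 5 and 36 UMIs of S100a8 and 8 and 23 of S100a9 in macrophages. The background of both genes, given above, was also lower in KO_HFD than in Lox_HFD. The pairs share libraries, Lox_CTR, KO_CTR, Lox_HFD and KO_HFD each standing in 2 of the 4.

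The makeup of the macrophage gate differed along with these values. Cavity-like cells were 15.0%, 2.85%, 9.71% and 7.98% of macrophages. Within Lyve1 resident macrophages KO_CTR was still below Lox_CTR, by -2.39 (-2.64 to -2.15) for S100a4, -1.86 (-1.98 to -1.74) for S100a10, -1.58 (-1.72 to -1.44) for S100a6 and -1.11 (-1.32 to -0.91) for S100a11. The near-0 values of S100a4 and S100a6 for Lox_HFD over Lox_CTR were made of unlike parts. In Lyve1 resident cells they were -2.03 (-2.52 to -1.58) and -1.49 (-1.78 to -1.21). Macrophages of neither sub-type had S100a4 at 354 CPM in Lox_CTR and 1034 in Lox_HFD, and S100a6 at 698 and 1671, the Lox_HFD values in 29 cells. For KO_HFD over Lox_HFD, Lyve1 resident cells had more S100a4, by 1.37 (0.90 to 1.88), and more S100a6, by 1.49 (1.20 to 1.79). S100a10 was higher there by 1.49 (1.17 to 1.82). Whole macrophages had none of these past 2-fold. In Lyve1 resident cells 8.22% of all genes passed 2-fold for KO_CTR over Lox_CTR and 19.9% for Lox_HFD over Lox_CTR. For KO_HFD over Lox_HFD 9.06% did.

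T cells had a like order of libraries. S100a6 was at 1389, 420, 673 and 1557 CPM, S100a4 at 671, 195, 342 and 574, S100a10 at 801, 323, 414 and 817 and S100a11 at 652, 176, 283 and 441. Lox_CTR and KO_HFD stood highest and KO_CTR lowest for all 4, as among Lyve1 resident macrophages for S100a4 and S100a6. Fibroblasts had this order for S100a4, over the narrower range given above, and not for S100a6, S100a10 or S100a11.

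**Figure D5:**
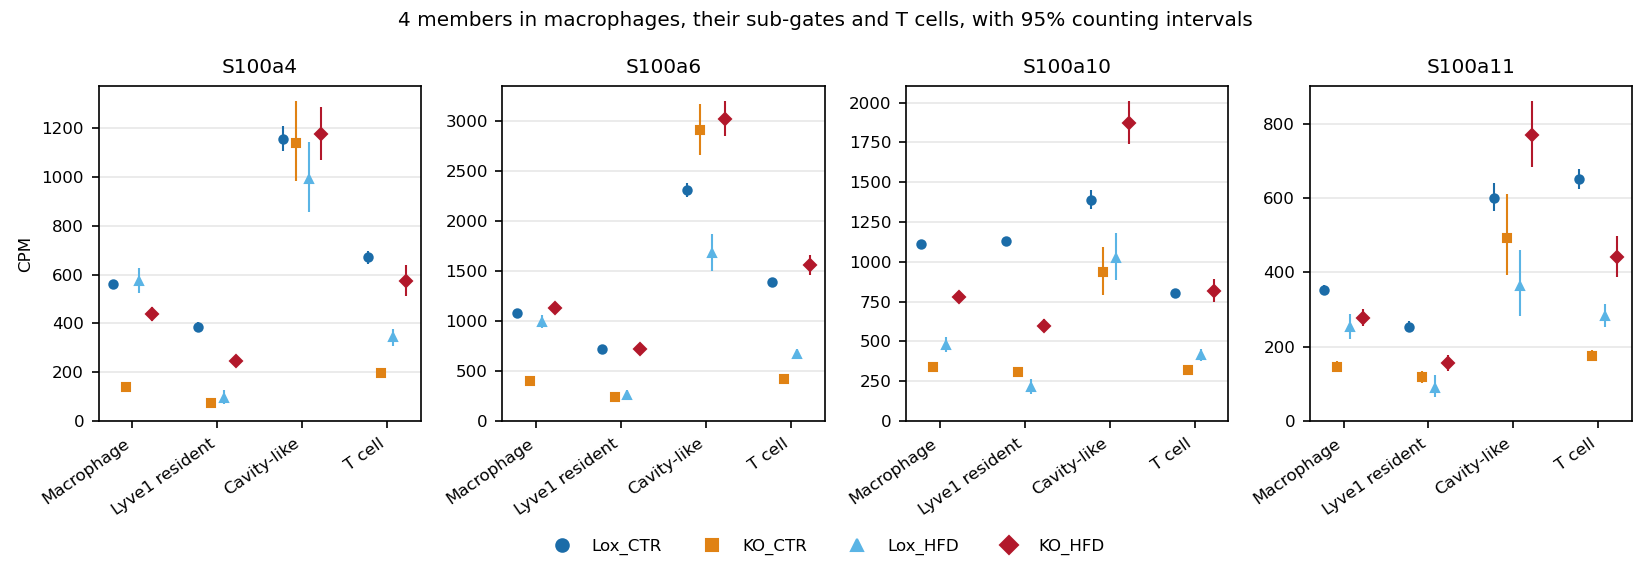
CPM of S100a4, S100a6, S100a10 and S100a11 in macrophages, Lyve1 resident macrophages, cavity-like macrophages and T cells, by library, with exact 95% Poisson intervals. KO_CTR lies lowest in macrophages and T cells for all 4 genes, while cavity-like macrophages stay high for S100a4 in each library.

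In fibroblasts and smooth muscle cells the members changed little between libraries, apart from S100a8 and S100a9. In fibroblasts, of 10 members tested in each pair, 0 passed 2-fold for Lox_HFD over Lox_CTR (8.31% of all genes passed), 2 for KO_HFD over KO_CTR (5.98%), 2 for KO_CTR over Lox_CTR (6.12%) and 1 for KO_HFD over Lox_HFD (2.14%). In smooth muscle cells the counts were 2 of 10 for Lox_HFD over Lox_CTR (12.2%), 0 of 9 for KO_HFD over KO_CTR (4.35%), 2 of 10 for KO_CTR over Lox_CTR (5.29%) and 2 of 9 for KO_HFD over Lox_HFD (6.22%). Every member that passed in these types was S100a8 or S100a9, which follow the background and the few cells above 1%. The other 8 members were all lower in fibroblasts of KO_CTR than of Lox_CTR, by log2 ratios between -0.48 and -0.18, beside a median of 0.05 over all genes. Endothelial cells were not counted in this way, and their S100a11 ran from 445 to 979 CPM between libraries.

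Partners of the family were read from a list of 10 genes of binding partners and receptors and 3 calmodulin genes, with Plau, Plaur and Plat as genes of plasminogen activation. Ager, the receptor for advanced glycation end products, was too low to be tested. Each count is given with the share of all genes called in the same comparison. Neutrophils had 8 of 9 partners called (40.5%), 3 higher and 5 lower than macrophages, among them Anxa1 (3.06 ± 0.34), Anxa2 (1.76 ± 0.29) and Myh9 (1.57 ± 0.20) up and Ahnak (-4.58 ± 0.40) and Cd36 (-5.98 ± 0.66) down. So Anxa2 was higher where S100a10 was lower. Classical monocytes had 4 of 9 called (27.0%), with Anxa1 (1.89 ± 0.33) and Anxa2 (1.24 ± 0.28) up and Cd36 (-4.38 ± 0.42) and Tlr4 (-1.96 ± 0.46) down.

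Against fibroblasts, macrophages had 6 of 9 partners called, near the 66.4% of all genes, with Cd36 (6.66 ± 0.32), Myh9 (1.13 ± 0.16) and Tlr4 (1.12 ± 0.19), the receptor of calprotectin, higher and Anxa1 (-2.09 ± 0.30), Anxa2 (-1.19 ± 0.25) and Bsg (-1.41 ± 0.18) lower. Smooth muscle cells had 5 of 9 called (45.8%) and endothelial cells 6 of 9 (32.5%), and Anxa1 and Anxa2 were lower in both. T cells had 6 of 9 called against macrophages, near the 67.0% of all genes, 1 higher and 5 lower. Lyve1 resident against cavity-like macrophages had 5 of 9 (22.9%), with Anxa2 lower by -2.55 and Anxa1 by -1.46, in the same direction as S100a10 and S100a11. Pi16 progenitor-like fibroblasts had 3 of 9 (15.7%), among them Anxa1 higher by 1.13.

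The plasminogen activators split by type. Plau, the urokinase activator, was higher in macrophages than in fibroblasts (2.60 ± 0.18), as was its receptor Plaur (2.35 ± 0.22), while the tissue activator Plat was lower (-5.51 ± 0.31). Smooth muscle cells had less of all 3 than fibroblasts, with Plau at -2.82 ± 0.27, Plat at -2.64 ± 0.23 and Plaur at -0.56 ± 0.23. In neutrophils and in classical monocytes Plaur was higher than in macrophages (2.56 ± 0.25 and 1.86 ± 0.24) and Plau lower (-3.72 ± 0.73 and -3.29 ± 0.44). Lyve1 resident macrophages had more Plau (1.39 ± 0.31) and less Plaur (-2.65 ± 0.32) than cavity-like ones. Pi16 progenitor-like fibroblasts had Plau (2.89 ± 0.23) and Plat (1.42 ± 0.20) both higher. Each of these values passed edgeR's adjusted p of 0.05. Of the 3 calmodulin genes 1 or 2 were called in the 6 comparisons of whole types and 0 in both comparisons of sub-types. Medians over the binding partners lay between -1.42 (neutrophils against macrophages) and 0.11 (Pi16 progenitor-like fibroblasts).

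The genes most like each member were taken by Pearson correlation of log2(CPM + 1) over 41 sums of type and library, among 13081 genes with at least 200 UMIs. The sums of a library share its depth and free RNA, so these are descriptions. S100a8 and S100a9 were most like each other (r = 0.98), followed by Ngp (0.95 for both) and Wfdc21. S100a6 was most like S100a11 (0.70), while S100a11 was most like Plp2 (0.85) and Anxa1 (0.78). S100a16 stood next to Nfib (0.94), Cdkn1c (0.93) and Nfia (0.91), and S100a13 next to Cxcl12 (0.78). S100a1 was most like Nr2f6 (0.89), S100a10 like Ssr4 (0.85), S100a4 like Ythdc2 (0.72) and S100b like C1qtnf3 (0.77). Neither S100a4 nor S100a6, neighbours on chromosome 3, was among the 3 genes most like the other.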

How the data were processed

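Single-cell RNA sequencing (10x Chromium 3′, v3.1) was done on 4 libraries, 1 per condition. The authors mapped reads to mm10 with Cell Ranger 6.1.2 and deposited whole UMI counts per gene and barcode, not normalized. No cell annotation was used. Part of the treatment and some results of a gene list are not reported here. The study's limits were applied (200 to 6000 detected genes, no more than 15% mitochondrial UMIs). Doublets (242, 1.71%, Scrublet in scanpy 1.11.5) were left in. A cell took the type with the highest mean marker level (each marker scaled to its 90% quantile), if at least 3 markers were detected and the lead was 0.1. These limits were set after marker values were seen, and Pi16 progenitor-like cells needed 4 markers. Clusters (Leiden, leidenalg 0.10.2, resolution 1.5, 2000 genes, 30 components, 20 neighbours, 33 clusters), named from the same markers, were an alternative. Members and gene lists were chosen with earlier results of these data known, and the motifs and granule-gene cells after seeing sequences and values.

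Counts were summed per type and library (at least 10 cells, types in at least 3 libraries) and fitted with edgeR 4.0.16 (TMM, filterByExpr, quasi-likelihood test, type plus library as block, R 4.3.3), with Benjamini-Hochberg adjustment over all genes. Sub-types had a fit of their own. SE is the log2 fold change divided by the square root of F. The script was tested on simulated data. DESeq2 1.42.0, scalings, filters, gates, clusters and leaving out each library were alternatives. Between libraries no test was made. CPM have exact Poisson and ratios and shares exact binomial intervals at 95%, which cover counting error only, and a gene without UMIs was set at a floor of 3 counts. All 10 members were named everywhere, other genes where their list was tested, and the 3 most alike genes per member by Pearson correlation. Python 3.11.15, numpy 2.4.6, scipy 1.17.1 and matplotlib 3.10.9 were used.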

Additional observations from a re-analysis of the deposited data

Results flagged for a closer look

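S100a10 in macrophages had log2 ratios of opposite sign for high-fat over control library. They were -1.21 in the Nrf2 flox/flox pair and 1.19 in the pair labelled Nrf2Cdh5tKO. The first was -0.69 with clusters in place of gates, and the second 0.78 as a mean over cells and 0.90 with a stricter gate. Cavity-like cells went from 15.0% to 9.71% of macrophages in the first pair and from 2.85% to 7.98% in the second. In T cells S100a6 also had ratios of opposite sign, -1.05 and 1.89, and so had S100a11, with -1.20 and 1.33. These differences were not tested, as each condition is 1 library.

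Cells that were given no type, used in no comparison above, had S100a8 and S100a9 at 6441 CPM in Lox_CTR, 8801 in KO_CTR, 42166 in Lox_HFD and 19.6 in KO_HFD, above the limits of 0.795, 2.88, 3.02 and 2.02 CPM that a count of 0 allows. Of these 373, 170, 109 and 210 cells, 6, 2, 4 and 0 gave over 1% of their UMIs to the pair.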

How the results depend on the processing

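Of 41 member values called between cell types, 486 values under alternatives were computed, of which 459 kept direction and call, 26 kept the direction only and 1 reversed. Of the 39 not called, 19 passed in at least 1 alternative. With no filter on low counts 5 members instead of 3 were called in T cells against macrophages, 8 instead of 4 in endothelial cells against fibroblasts and 6 instead of 3 in Pi16 progenitor-like against other fibroblasts. Leaving out 1 library gave 1 to 3 members in T cells, the 1 without Lox_CTR. With clusters, S100a16 reversed to 1.96 in neutrophils and to 0.67 in T cells against macrophages. With clusters, S100a8 in fibroblasts reversed to -0.78 (KO_HFD over KO_CTR) and -2.84 (KO_HFD over Lox_HFD) and S100a9 to -0.81 (KO_HFD over KO_CTR), and in smooth muscle cells (Lox_HFD over Lox_CTR) S100a8 to 0.99 and S100a9 to 0.18. Pooled S100a8 and S100a9 in the 5 background types, here with cells above 1% left in, was 125 CPM. It was 154 without limits on cells, 121 with a stricter gate, 115 without doublets, 39.4 with clusters and 92.7 as a mean over cells. Without granule-gene cells (chosen after seeing the data) it was 64.5. The only such cell in these types was 1 smooth muscle cell of Lox_CTR, with 4202 UMIs of S100a8 and 4563 of S100a9. The cause of the other changes was not tested.

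Without Lox_CTR, the calls over all genes were 2166 instead of 4367 in neutrophils, 1926 instead of 2918 in classical monocytes, 1343 instead of 2479 in Lyve1 resident macrophages and 1028 instead of 1700 in Pi16 progenitor-like fibroblasts. For macrophages against fibroblasts 3544 genes were higher and 3619 lower, 2874 and 4718 with DESeq2's scaling in edgeR and 2875 and 4636 in DESeq2. For neutrophils against macrophages it was 1201 and 3166, and 1566 and 2218 in DESeq2. That scaling moved the median of all genes from -1.07 to -0.89 in neutrophils and from -0.14 to -0.02 in T cells. The stricter gate for classical monocytes and for macrophage sub-types, and neutrophils without granule-gene cells, left too few sums to be fitted. No paired analysis was possible because each condition has 1 library, and the library is already the block between cell types. The 8 to 90 neutrophils and 22 to 74 endothelial cells of a library limit what can be seen in those types.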
